A study of Homo sapiens with 3 samples.

Results

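The cytosolic ribosomal protein genes described here are the protein components of the large (RPL) and small (RPS) subunits of the ribosome. Members were taken as every probe set of the array that the platform annotation pairs with exactly 1 gene whose symbol is RPL or RPS with a number (a final A, L, X or Y allowed), or RPLP0, RPLP1, RPLP2 or RPSA. Pseudogenes, RPS6K kinases and mitochondrial ribosomal proteins were left out. This gave 117 of the 54613 probe sets besides controls, and 56 of 19775 genes that have such a probe set, 35 of them RPL and 21 RPS. RPLP0 and RPSA have no such probe set and are not analysed here.

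RNA came from HT29, a human colon cancer cell line, carrying either an empty lentiviral vector (1 array) or a lentiviral construct for miR-146a (2 arrays, given as replicates). The sources used here do not give whether each transduced line is a pool or a clone, or whether the 2 miR-146a arrays come from separate cultures. A p-value here thus rests on how far those 2 arrays differ, possibly for technical reasons alone, and in bulk RNA more cells with a transcript cannot be told apart from more of it per cell. The vector has no replicate. All 10 colon epithelial markers listed (among them EPCAM, KRT20 and VIL1) were above the filter on low signal described below. Of the markers of other cells, COL1A1 and DCN (2 of 5 for fibroblasts), CD14 (1 of the 3 leukocyte markers with a probe set) and PECAM1 (1 of 3 for endothelium) were above it.

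A ribosome joins one copy of nearly every one of these proteins with ribosomal RNA, and the proteins are made in matched amounts from some of the most abundant messenger RNAs of a dividing cell. Most of these messengers begin with a C followed by a run of pyrimidines, the 5′ terminal oligopyrimidine (TOP) motif, through which mTORC1 and the RNA-binding protein LARP1 set their translation. Their output is therefore controlled largely after transcription, which an array of RNA levels does not read. In the colon epithelium and its tumours, ribosome production follows growth signals and MYC.

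The guide strand of the expressed microRNA and the first transcribed bases of several members are shown so that the perturbation and the TOP feature can be seen. All are from RefSeq on GRCh38.p14. In the mature microRNA (chr5:160485372-160485393, plus strand) capitals mark the seed, bases 2 to 8.
hsa-miR-146a-5p: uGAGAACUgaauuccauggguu

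For the genes, each stretch holds 10 bases before and 20 bases from the annotated start of transcription, and capitals mark a run that begins with C exactly at the start and goes on with at least 4 further pyrimidines. RPL36 had the highest difference, and the next 5 had probe sets that differed widely among themselves. Of the last 4, RPS27 and its paralog RPS27L, the testis-associated retrocopy RPL10L and the X-linked RPS4X, only RPS27 has such a run.
RPL36 (chr19:5690285-5690314, plus): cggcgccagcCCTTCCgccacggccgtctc
RPL31 (chr2:101002279-101002308, plus): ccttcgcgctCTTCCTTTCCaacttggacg
RPS14 (chr5:150449720-150449749, minus): ccctcccactCTCTCTTTCCggtgtggagt
RPS6 (chr9:19380217-19380246, minus): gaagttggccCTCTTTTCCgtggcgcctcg
RPL18 (chr19:48619159-48619188, minus): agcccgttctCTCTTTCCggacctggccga
RPS23 (chr5:82278335-82278364, minus): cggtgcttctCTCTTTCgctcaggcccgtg
RPS27 (chr1:153990752-153990781, plus): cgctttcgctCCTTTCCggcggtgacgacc
RPS27L (chr15:63157458-63157487, minus): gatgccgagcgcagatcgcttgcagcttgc
RPL10L (chr14:46651762-46651791, minus): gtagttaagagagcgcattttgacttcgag
RPS4X (chrX:72277229-72277258, minus): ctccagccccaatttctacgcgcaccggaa

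Of the 56 member genes 48 matched an entry of the RefSeq promoter table. In 34 of these (70.8%) a C followed by at least 4 pyrimidines stood exactly at an annotated start, against 5.14% of all 27305 genes in the table and 8.70% of 69 mitochondrial ribosomal protein genes. Counting a run whose C lay within 5 bases of the start, only on the strand that reads like the transcript, the share was 83.3% of members and 25.2% of all genes. The 7-letter ETS core CCGGAAG, on either strand of the 250 bases before a start, was in 35.4% of members, in 36.2% of mitochondrial ribosomal protein genes and in 10.2% of all genes. TATAAA on that same strand between 40 and 20 bases before a start, reading like the transcript, was in 4.17% of members and 2.85% of all genes. A match describes letters only, and is no evidence of binding.

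Each gene was read through its probe set with the highest average signal, and genes were kept when that average was above 5.13, the median of all probe sets besides controls. All values are log2 and differences are miR-146a mean minus vector. Of the 117 probe sets 106 passed, and 53 of the 56 genes. The genes that did not pass were RPL36A, RPL39L and RPL3L. RPL36A, just under the filter, read 5.20 in the vector and 4.99 and 4.93 in the miR-146a arrays. It has a single probe set under the rule. Probe sets annotated to several genes are left out, so its low signal need not mean low expression. RPL39L, a paralog of RPL39 known from testis and some tumours, read 3.46, 3.50 and 3.43, and RPL3L, the form of RPL3 found in heart and skeletal muscle, read 4.25, 4.32 and 4.33. Nearest the filter on the other side lay a probe set of RPS14 at an average of 5.34. Its miR-146a mean of 5.07 lay under the filter, so it passed only through its vector value. Of the 53 genes kept, 48 had an average signal in the top 1% of all probe sets (at least 11.99), where the scale ends near 14.45.

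Through their brightest probe sets, ribosomal protein genes read nearly the same in the vector and the miR-146a arrays. These probe sets lay near the top of the scale, with a median average signal of 13.75 for the 48 in the top 1%, and signal there can be compressed, which was not tested. All 53 genes lay within 0.2 of the vector in both miR-146a arrays, whereas 69.0% of all 12444 genes did. Differences ran from -0.14 for RPLP2 to 0.12 for RPL36, with a median of -0.01 against 0.01 over all genes, and their SD was 0.04 against 0.18. Replicate 1 minus replicate 2 of miR-146a had an SD of 0.04 over these genes and of 0.11 over all genes. Among the 251 genes outside the rule that were also in the top 1% of signal, a comparison added after seeing the data, 91.2% lay within 0.2 and the SD of the differences was 0.11. Those genes were dimmer, with a median average signal of 12.53, so the groups are not matched on signal.

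**Figure D1:**
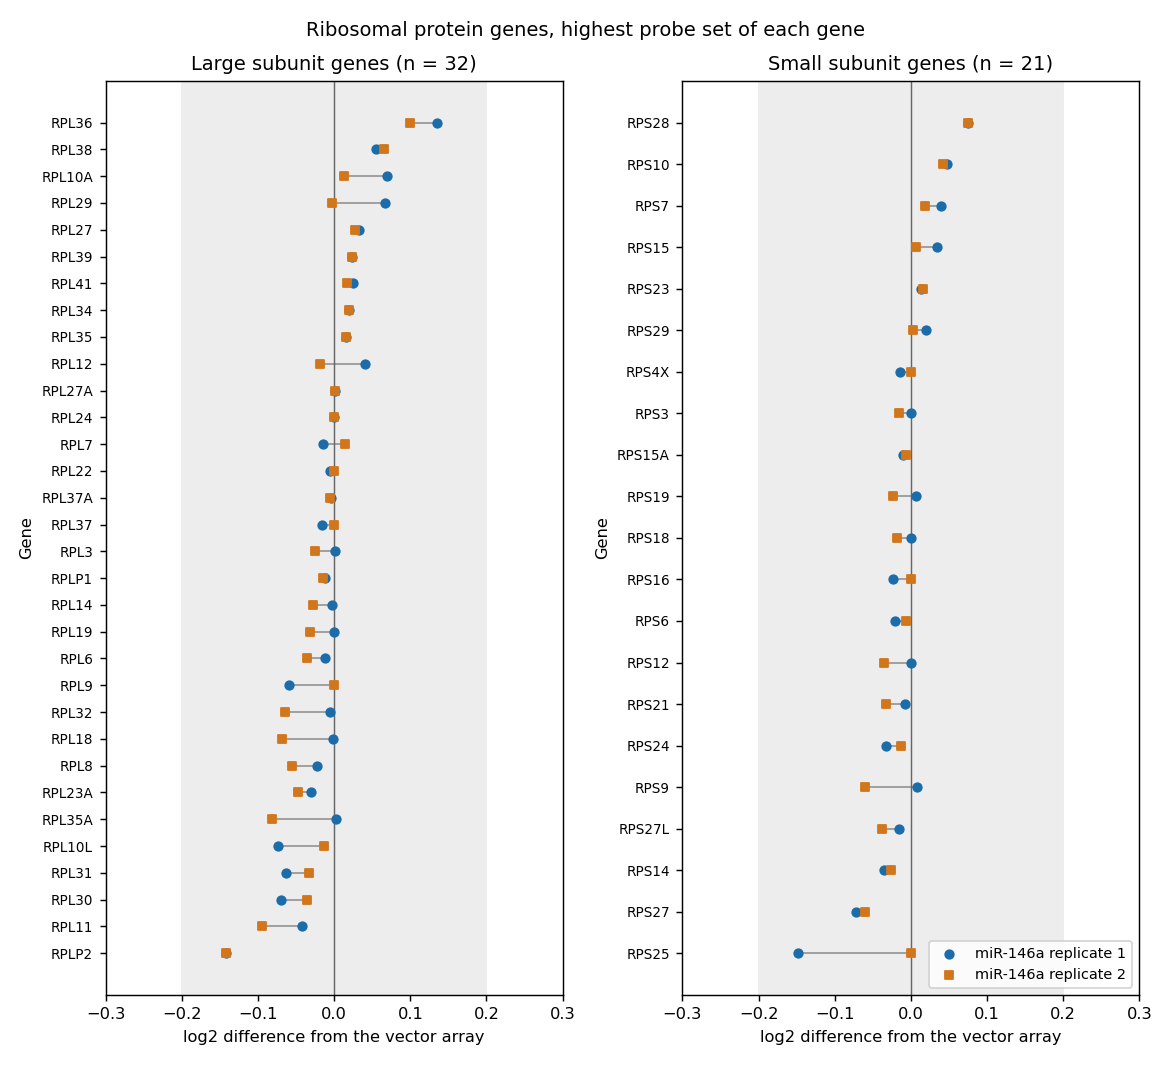
Log2 difference from the vector array for the highest probe set of each ribosomal protein gene, with 1 circle and 1 square for the 2 miR-146a arrays, for 32 large subunit and 21 small subunit genes. Every point lies inside the grey band, which spans 0.2 on each side of the vector.

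By direction, 15 genes lay above the vector in both replicates (40.2% of all genes did) and 20 read lower in both (28.8% of all genes), and the other 18 lay on both sides of it or tied with it. After cyclic loess on top of the deposited values the split was 24 higher and 12 lower. Through their highest probe sets the members thus have no settled direction. With each gene's probe sets averaged, 11 were higher and 27 lower (5010 and 4320 of all 12444 genes), and the dimmer probe sets are described below. In each direction 0 members differed by 0.2 or more in both arrays, against 9.86% of all genes higher and 5.19% lower by that much, and 0 differed by 1.5-fold (0.546% higher and 0.297% lower). Limma, adjusted over all genes, called 0 members (0% of all genes in either direction), with a smallest adjusted p of 0.119. In simulated data with some ties this default prior called none of the genes changed by 1 log2 unit. Its 0 calls thus say nothing about stability. Smaller changes were not simulated. At an unadjusted p under 0.05 limma had 2 members higher and 2 lower, where 14.6% and 9% of all genes passed. With a prior from unequal replicates, meaning one estimated without the genes whose 2 miR-146a values tie, limma called 0 members, against 4.76% of all genes as higher and 2.36% as lower. With a robust prior it called 1, RPLP2, lower, where 433 of all 12444 genes were called higher and 202 lower.

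In the large subunit 9 of 32 genes read higher in both arrays and 13 lower (40.2% and 28.8% of all genes), with a median of -0.01. RPL36, a protein of the large subunit, read 11.71 in the vector and 11.85 and 11.81 in the others. This was the highest difference among members (0.12, limma SE 0.03, adjusted p = 0.252). Both miR-146a values lay above the vector by more than the gap between them. RPL38, studied for its part in the translation of particular messengers in embryos, read 13.11, 13.17 and 13.18 (0.06, limma adjusted p = 0.209). That value turned to -0.09 when probe sets ending in _x_at, a suffix for probes shared with other sequences, were left out and to -0.05 with all its probe sets averaged.

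RPL27 (13.61 in the vector, 13.64 and 13.64 in the miR-146a arrays), RPL39 of the peptide exit tunnel (14.16, 14.18 and 14.18) and RPL34 (13.15, 13.17 and 13.17) came next in this subunit when genes were ranked on the smaller of their array differences. Their mean differences, between 0.02 and 0.03, did not pass limma.

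The stalk proteins recruit translation factors to the large subunit. RPLP1 read 14.12 in the vector and 14.11 and 14.10 in the miR-146a arrays. RPLP2 was read through a probe set at 6.05 in the vector and 5.91 in both miR-146a arrays, a difference of -0.14 (limma SE 0.01, adjusted p = 0.119). The exact tie gives that small SE, and with the prior from unequal replicates the SE was 0.09 and the limma adjusted p = 0.393. As for RPL36A, the low signal of RPLP2 need not mean low expression.

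RPL11, which with RPL5 and the 5S ribosomal RNA binds MDM2 when ribosome assembly fails, read 13.39 in the vector and 13.35 and 13.30 in the miR-146a arrays (-0.07, limma adjusted p = 0.491). RPL5 itself has no probe set under the rule. Of the genes around the peptide exit tunnel, 2 of 6 read higher and 2 lower in both arrays (40.2% and 28.8% of all genes). RPL31 read 13.79, 13.73 and 13.76, and RPL23A, a docking site for factors at the tunnel exit, read 14.25, 14.22 and 14.21. RPL30 (13.68, 13.61 and 13.64) and RPL8 (13.61, 13.59 and 13.56) were the other large subunit genes among the 8 lowest on that ranking. None of the genes in this paragraph passed limma, and in each the nearer miR-146a array lay within 0.05 of the vector.

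RPL24, named after its values were seen, gave 14.05 in all 3 arrays. The 2 miR-146a arrays held equal values for 7 of the 53 genes.

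In the small subunit 6 of 21 genes read higher in both arrays and 7 lower (40.2% and 28.8% of all genes), with a median of -0.01. RPS28, which lies at the mRNA exit channel, read 13.35 in the vector and 13.43 in both miR-146a arrays (0.08, limma adjusted p = 0.149, or 0.726 with the prior from unequal replicates). RPS10 read 13.78, 13.83 and 13.82, and RPS7 read 13.66, 13.70 and 13.67. With the _x_at probe sets left out RPS7 differed by -0.03, so its direction rests on the probe set.

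RPS25, also named after its values were seen, had the lowest mean difference of the small subunit, -0.07, which came from replicate 1 alone (13.48 in the vector and replicate 2, 13.33 in replicate 1). RPS27 lay lower in both, at 13.80 in the vector and 13.72 and 13.73 in the miR-146a arrays (-0.07, limma adjusted p = 0.206). Its other probe set, at 6.15 in the vector, read 6.39 and 6.21. RPS27L, the paralog induced by p53, read 11.34, 11.33 and 11.31, and RPS14, a gene of the 5q deletion syndrome, read 13.86, 13.82 and 13.83. RPS4X read 13.97 in all 3 arrays apart from 13.96 in replicate 1. RPL10L, the large subunit retrocopy whose start is shown above, read 6.62, 6.55 and 6.61.

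RPS6, the protein phosphorylated by S6 kinase downstream of mTORC1, read 13.88 in the vector and 13.86 and 13.87 in the miR-146a arrays. A phosphorylation change would not appear in these data. Diamond-Blackfan anaemia is an inherited failure of red cell production. Of the 11 measured genes mutated in it, 5 read higher and 4 lower in both arrays (40.2% and 28.8% of all genes). Their differences lay within -0.07 to 0.08.

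Members were also divided by the C run at the annotated start, and the difference between the groups was not tested. The 33 genes with the run and above the filter had a median difference of -0.01, with 9 higher and 12 lower in both arrays. The 14 without it also had a median of -0.01, with 6 higher and 4 lower.

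The probe sets of one gene did not always read alike. For the 30 genes with more than 1 probe set above the filter, the range of differences over a gene's probe sets had a median of 0.13, and it was at least 0.2 in 10 genes. The highest probe sets were near the vector in each of these, and the dimmer ones carried the range. Such ranges were not taken over other genes, so these counts are not shown to be particular to the members. Differences of probe sets other than a gene's highest had an SD of 0.16 for members and 0.22 over all genes. The probe set of a gene with less signal is not a replicate, and where on the transcript or its introns it lies is not used here.

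RPL37, a zinc-binding component of the large subunit, had the second widest range over its probe sets, after RPS14. Its highest one read 13.76 in the vector, 13.75 in replicate 1 and 13.76 in replicate 2. Another read 9.14 in the vector and 8.66 in both miR-146a arrays, a difference of -0.48. A further one read 9.15, 8.80 and 8.66 (-0.42), and the last read 6.27 in all 3. So 2 of its probe sets were lower in the miR-146a arrays without overlap, and the others lay within 0.02 of the vector.

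RPS14 read 5.60 in the vector and 5.23 and 4.92 in the miR-146a arrays through a dim probe set (-0.53). That probe set passed the filter only through its vector value, which favours a lower reading in the miR-146a arrays. Through another, RPS14 read 5.93, 5.61 and 5.61 (-0.32). RPS6 read 6.15, 5.74 and 5.72 through its dimmest probe set (-0.42). RPL31 read 6.99, 6.66 and 6.42 (-0.45) through its dimmest and 9.62, 9.27 and 9.44 (-0.26) through the middle one. In each of these the vector lay above both miR-146a arrays.

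RPL18 read 8.05, 7.68 and 7.64 (-0.40) through one probe set, while its other dim one, ending in _x_at, read 7.57, 7.40 and 7.67. RPS23, a protein of the decoding centre, read 5.61, 5.33 and 5.24 (-0.32), against 14.01, 14.02 and 14.02 through its highest. RPL7, named after its values were seen, read 7.89, 7.52 and 7.69 (-0.28).

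**Figure D2:**
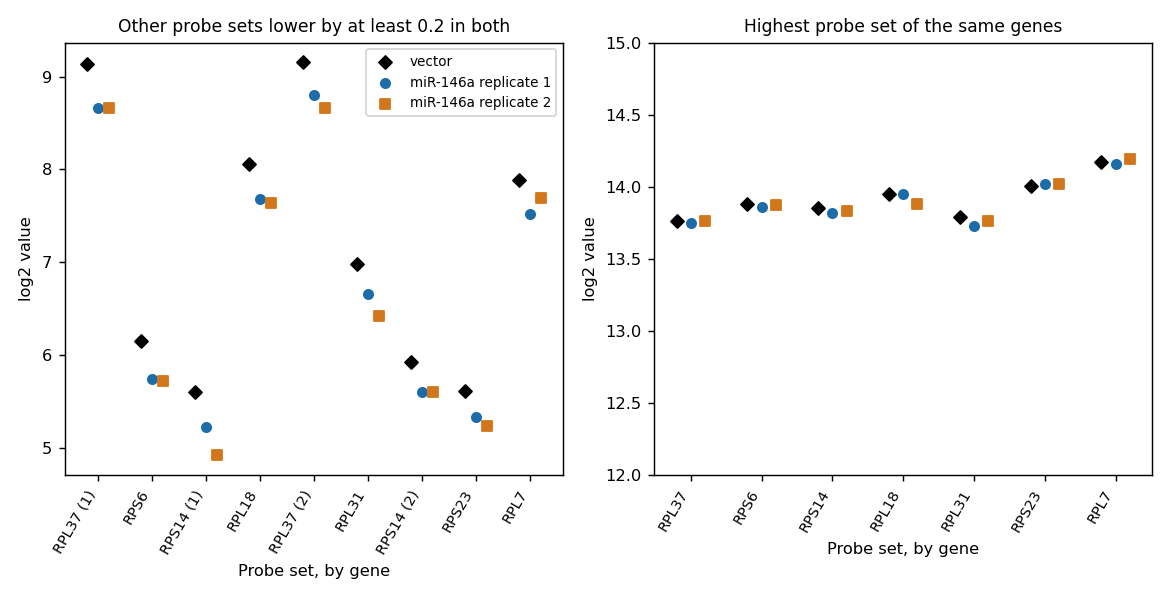
Log2 values in the vector array and both miR-146a arrays for the 9 dimmer probe sets lower by at least 0.2 in both (left) and for the highest probe set of the same 7 genes (right); the panels have different ranges. On the left the vector is above both miR-146a arrays for every probe set, and on the right the 3 arrays lie close together. The dimmest probe set on the left, of RPS14, passed the filter only through the vector.

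Of the 53 probe sets above the filter that were not the highest of their gene, 33 read lower and 10 higher in both arrays (37.2% and 32.4% of the 10136 such probe sets of all genes). By at least 0.2 in both, 9 were lower, or 17.0%, near the 12.7% found over all genes, and 0 were higher (8.28%). This grouping was chosen after seeing the data. Of the 31 with an average signal under percentile 95 (10.02), 20 read lower and 3 higher in both (36.8% and 32.4% of 9631). Of these 31, 29.0% were lower by at least 0.2 in both, against 12.9% of such probe sets, and 0 were higher by that much (8.59%). Those lower by that much include the RPS14 probe set that passed the filter only through the vector. The median of the 31 was -0.12, against 0.00 over all genes and 0.01 over 43 such probe sets of mitochondrial ribosomal protein genes. It was -0.13 after cyclic loess or quantile normalization. The genes compared were not matched on their highest probe sets, whose median signal was 13.67 for members, 9.90 for mitochondrial ones and 7.92 over all genes. Other TOP genes also had lower probe sets besides their highest, at any signal above the filter. Differences ran from -0.44 to -0.10 for EIF4B and from -0.36 to -0.21 for HNRNPA1. For NAP1L1 they ran from -0.05 to 0.06, and that of EIF3H was higher (0.08).

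Tested with every probe set in 1 fit, limma called 0 of the 106 members (0% of 27306 probe sets). At an unadjusted p under 0.05 limma had 2 higher and 8 lower, against 12.4% and 10.9% of all probe sets. With the prior from unequal replicates, limma called 6 members, all lower and all dim probe sets, against 4.78% of all probe sets called lower and 4.14% called higher. They were those of RPL37 (limma adjusted p = 0.00652 and 0.0175), RPS14 (0.0104), RPS6 (0.014), RPL31 (0.019) and RPL18 (0.02). A count of 6 in 106 is near that background, and it includes the RPS14 probe set that passed the filter only through the vector. By suffix, 21 of the 34 members ending in plain _at read lower in both arrays, as did 21 of 38 ending in _s_at and 11 of 34 ending in _x_at. Over all probe sets of 1 gene above the filter 32.6% did, and shares by suffix were not taken over all genes. The suffix groups also differed in signal, with median averages of 8.17, 13.63 and 13.36.

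**Figure D3:**
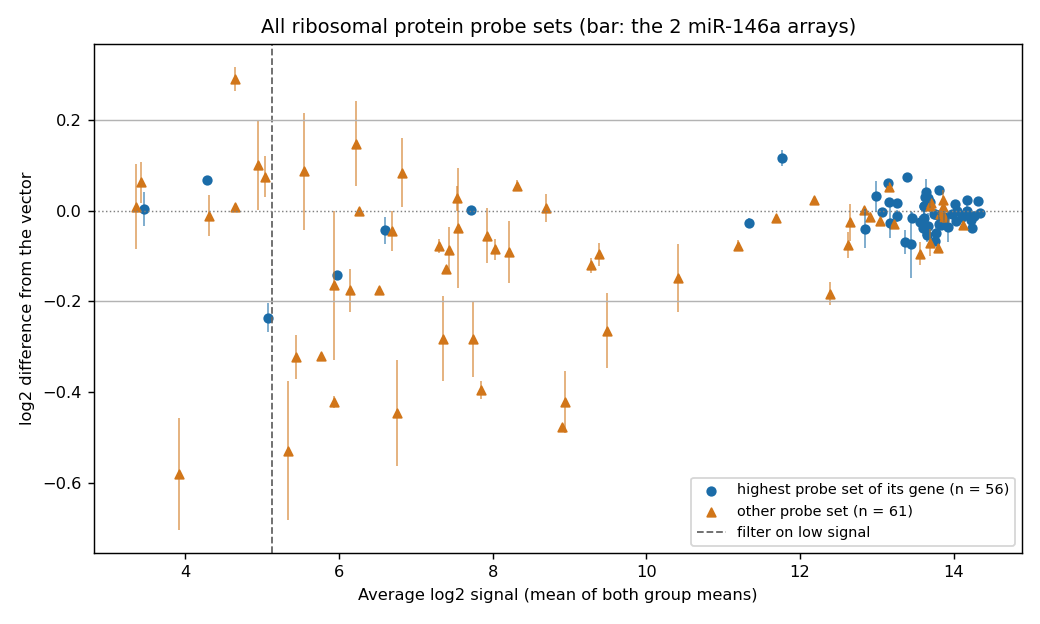
Mean log2 difference from the vector against average log2 signal for all 117 ribosomal protein probe sets, as circles for the highest of each gene and triangles for the others, with bars joining the 2 miR-146a arrays. Points above a signal of 12 lie within 0.2 of 0, and those with differences under -0.2 are at a signal under 10.

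Control probe sets on the same arrays also differed. Those for ribosomal RNA, and the positions along each RNA, were identified from the probe set IDs and general knowledge of Affymetrix controls, not from the annotation supplied. For 18S ribosomal RNA, the RNA core of the small subunit, the middle probe set read 10.06 in the vector and 10.85 and 10.77 in the miR-146a arrays, and the 5′ and 3′ ones differed by 0.72 and 0.79. For 28S ribosomal RNA the 5′ probe set read 9.75, 10.85 and 10.66, the middle one 10.85, 11.08 and 11.19, and the 3′ one 5.32, 5.37 and 5.32. The 5′ probe sets of ACTB and GAPDH were lower by -0.23 and -0.31, while their 3′ ones differed by 0.04 and -0.02. Ribosomal RNA has no poly(A) tail, so its signal in cRNA made by standard Affymetrix protocols is not a measure of ribosome number. The part of RNA quality or of ribosomal RNA signal in the differences of the dimmer probe sets was not tested.

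**Figure D4:**
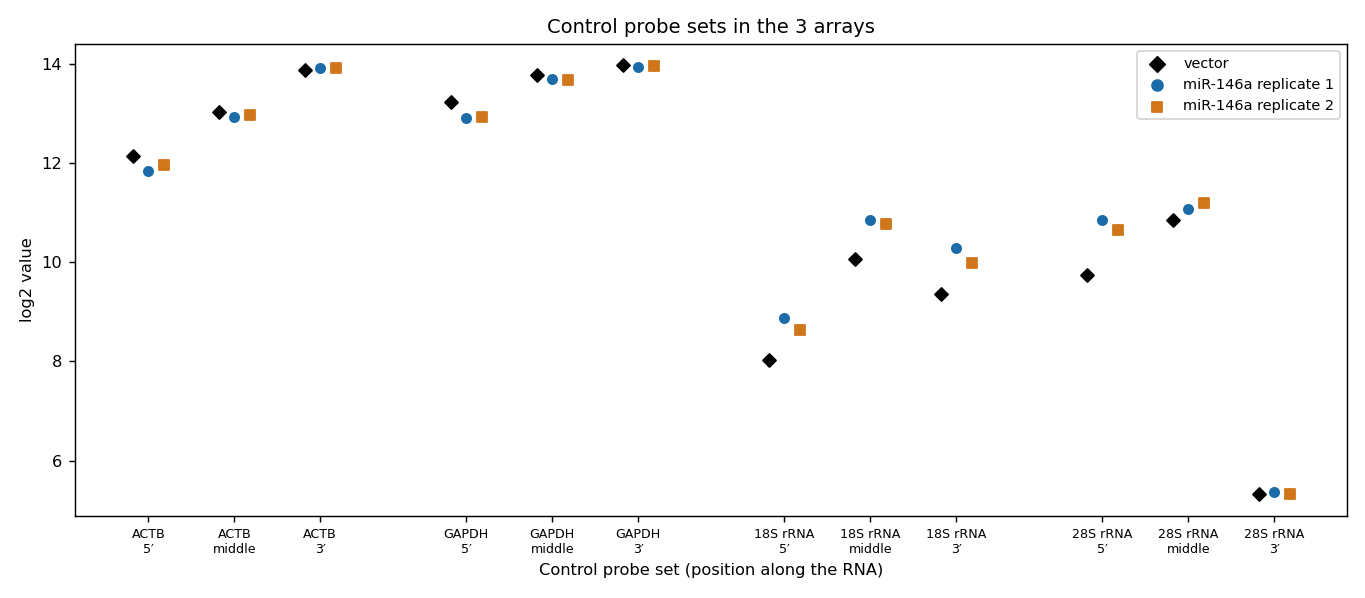
Log2 values of the control probe sets for ACTB, GAPDH, 18S and 28S ribosomal RNA at 3 positions along each RNA, in the vector array and both miR-146a arrays. All 3 18S probe sets and the 28S 5′ probe set are higher in both miR-146a arrays, and the 5′ probe sets of ACTB and GAPDH are lower.

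The genes for assembling ribosomes mostly read higher in the miR-146a cells. Of 30 measured ribosome biogenesis genes (34 listed), 28 were above the vector in both arrays (40.2% of all genes) and 0 below (28.8%), and 14 were higher by at least 0.2 in both (9.86% of all genes). Their median was 0.22, and it was 0.21 after either added normalization and 0.16 with each gene's probe sets averaged. Limma called 0 over all genes (13 higher at an unadjusted p under 0.05, against 14.6% of all genes), and with the prior from unequal replicates it called 8, all higher, against 4.76%. The higher 18S and 28S control signals and lower 5′ signals given above came from the same arrays, and their part in this result was not tested.

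POLR1B, the second largest subunit of RNA polymerase I, which transcribes ribosomal RNA, read 8.0 in the vector and 8.56 in both miR-146a arrays, a 1.47-fold difference, with other probe sets from 0.04 to 0.51. GRWD1, a histone-binding protein also linked to delivery of ribosomal proteins, read 8.17, 8.62 and 8.56 (1.34-fold). NOP58, a core protein of the box C/D particles that methylate ribosomal RNA, read 11.33, 11.71 and 11.73 (1.31-fold). DDX21 and RRN3 were the 2 that did not stand apart, with mean differences within 0.01 of 0 and, for RRN3, arrays on both sides of the vector.

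**Figure D5:**
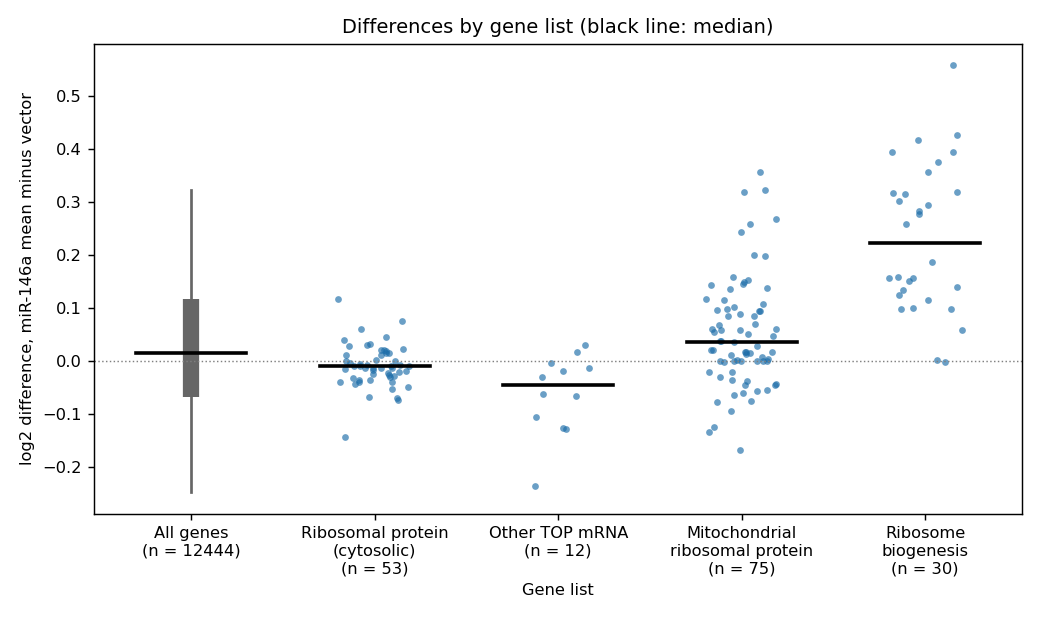
Log2 difference, miR-146a mean minus vector, for the genes of 4 lists (points) beside all 12444 genes (bar from the 25th to the 75th and line from the 5th to the 95th percentile), with medians as black lines. Cytosolic ribosomal protein genes lie around -0.01, and ribosome biogenesis genes around 0.22.

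Other messengers with a TOP motif, mainly translation factors, had a median of -0.05 over 12 measured genes (17 listed). In both arrays 9 were lower (28.8% of all genes) and 0 higher (40.2%). None was apart by 0.2 in both (9.86% of all genes higher and 5.19% lower). The list is bright, with a median average signal of 12.85. Of the 251 genes outside the rule in the top 1% of signal, 41.0% were lower and 29.9% higher in both. After cyclic loess 6 of the 12 were lower and 2 higher. With each gene's probe sets averaged the median of the 12 was -0.10 and 2 were lower by at least 0.2 in both. EIF4B, an activator of the EIF4A helicase, read 11.24 in the vector and 11.06 and 10.95 in the miR-146a arrays. EIF3F read 12.10, 12.01 and 11.94, and EIF2S3 read 11.07, 10.90 and 10.99. None of the 12 passed limma with either prior, and 0 had an unadjusted p under 0.05.

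Mitochondrial ribosomal protein genes, which serve a separate ribosome, had a median of 0.04 over 75 genes, with 37 higher (40.2% of all genes) and 10 lower (28.8%) in both. The 7 higher by at least 0.2 in both, or 9.33%, are near the 9.86% of all genes. The highest on the smaller array difference were MRPS17 (9.71 in the vector, 10.13 and 10.00 in the miR-146a arrays), MRPL46 (8.41, 8.75 and 8.69) and MRPS2 (9.36, 9.72 and 9.64). Limma with the prior from unequal replicates called 1 of the 75, MRPS17, as higher, against 4.76% of all genes.

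Some ribosomal protein genes that the rule leaves out have a probe set of their own. Of these, 2 of 5 read higher and 1 lower in both arrays (40.2% and 28.8% of all genes). RPL7L1, which acts in ribosome assembly, read 10.90 in the vector and 11.17 in both miR-146a arrays, a difference of 0.27. RPL22L1, the paralog of RPL22, read 11.03, 11.18 and 11.14. FAU, the source of the small subunit protein eS30, read 13.31, 13.31 and 13.26.

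In the mTORC1 list 9 of 18 genes read higher (40.2% of all genes) and 3 lower (28.8%) in both arrays, with a median of 0.02. DDIT4, an inhibitor of mTORC1, read 12.06 in the vector and 11.25 and 11.24 in the miR-146a arrays, and MYC read 9.91, 10.38 and 10.35. These 2 were the only genes of the list past limma with the prior from unequal replicates (4.76% of all genes higher and 2.36% lower). With its default prior 0 passed limma (0% of all genes). At an unadjusted p under 0.05 limma had 2 higher and 1 lower, where 14.6% and 9% of all genes passed.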

How the data were processed

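Biotin-labelled cRNA of 3 samples was hybridised to Affymetrix arrays, per the labels' protocols. The deposited log2 values come from RMA according to the submitters' processing notes. RMA corrects background, normalizes between arrays and summarises the probes of a set, and its version is not given in sources used here. Normalizing between arrays makes their distributions nearly the same, so a change shared by most transcripts would be largely removed. The medians here were 5.13 in the vector and 5.14 and 5.12 in the miR-146a arrays.

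Arrays were grouped by the transduction in the labels. Gene symbols came from the platform annotation, and all 117 members kept their symbol in RefSeq. Limma 3.58.1 (R 4.3.3; lmFit and eBayes, two-sided, Benjamini-Hochberg over all genes, threshold 0.05) was fitted to the 12444 genes above the filter. It has 1 residual degree of freedom, from the miR-146a arrays, and the vector is assumed to vary like them. In simulated data some replicates tied, though fewer than in these arrays, and the changed genes were moved by 1 log2 unit. There the default prior called none of the changed genes and a prior estimated without tied genes called nearly all. Without ties both called all. Changes as small as those of the members were not simulated, so the simulations do not show that either prior could call them. The number of arrays limits precision.

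Members and lists were chosen with earlier results of these data known. The text names the 8 highest and the 8 lowest genes (ranked on the smaller array difference), the stalk proteins, RPL11, RPS6 and paralog forms, the 6 with the widest range over probe sets, and up to 3 of each other list. Alternatives were other probe set summaries, filters, normalizations and priors, and leaving out a miR-146a array. Figures were drawn with matplotlib 3.10.9.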

Additional observations from a re-analysis of the deposited data

Results flagged for a closer look

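Of 6 control probe sets for ribosomal RNA, which no comparison of genes uses, 5 read higher in both miR-146a arrays than in the vector. The mean log2 differences were 0.72 at the 5′ position, 0.75 at the middle and 0.79 at the 3′ position of 18S, and 1.00 at the 5′ position and 0.29 at the middle of 28S. The 28S 3′ probe set differed by 0.02 and was equal in the vector and replicate 2.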

How the results depend on the processing

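No paired analysis was possible because the groups share fewer than 2 replicate numbers. The count of members called by limma was 0 under each alternative but 2. A robust prior called 1 (of all 12444 genes, 433 higher and 202 lower). With each probe set taken separately and the prior from unequal replicates, 6 of 106 were called lower (4.78% of all probe sets). Members apart by at least 0.2 in both arrays numbered 0, but 2 with a gene's probe sets averaged, 1 without _x_at probe sets, 1 without a filter and 9 of 106 with each probe set separately. With each probe set separately 25 read higher and 53 lower in both arrays (36.7% and 32.6% of probe sets of 1 gene above the filter). After cyclic loess the genes split into 24 higher and 12 lower. The median of -0.01 became -0.027 with probe sets averaged, -0.022 with each probe set separately, -0.016 without _x_at probe sets, 0.0087 after cyclic loess and -0.0050 after quantile normalization. Leaving out 1 miR-146a array gave medians from -0.0066 to -0.0018, with 16 to 21 genes higher and 27 to 30 lower. Among 24 named genes, 14 values changed sign. With probe sets averaged these were RPL38 (-0.050), RPS7 (-9.8e-06), RPS27 (0.041), RPLP1 (0.14), RPS4X (0.00034) and RPS23 (-0.15). Without _x_at probe sets they were RPL38 (-0.090) and RPS7 (-0.028). After cyclic loess they were RPLP1 (0.0062), RPS6 (0.0046), RPS4X (0.012) and RPL37 (0.0088), and after quantile normalization RPS6 (0.00060) and RPS4X (0.012). The causes were not tested. Without detection calls, signal over background is known from the values only.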

Other observations

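A further 64 probe sets are annotated to several genes of which one has a ribosomal protein symbol. They fall outside the rule and are not named. Of the 60 above the filter, 8 read higher and 34 lower in both miR-146a arrays. Over all 22580 probe sets of 1 gene above the filter these shares were 36.7% and 32.6%. Of the 60, 47 had a signal from percentile 95 upwards, all within 0.2 of the vector. Among the 13 dimmer ones the differences ran from -0.63 to 0.21. In both arrays 3 of the 13 were lower by at least 0.2, and 1 of these by at least 1.5-fold. Of the 22580, at any signal above the filter, 8.57% and 137 probe sets were lower by that much.

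Of the 11 members below the filter, 5 read higher and 2 lower in both arrays, with differences from -0.58 to 0.29. The shares over all probe sets below the filter were not taken, so these counts are not read as a result.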
